A study of Mus musculus with 22 samples.

Results

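The collagens and other extracellular matrix genes of a CosMx Spatial Molecular Imager panel were followed across cell groups and genotype in sections of mouse embryos. Members were all measured genes whose names begin with Col and a digit, or with Mmp, Timp, Lama, Lamb, Lamc, Thbs, Fbln or Fbn and a digit, together with Fn1, Dcn, Lum, Bgn, Vcan, Tnc, Sparc, Spp1 and Vtn. Of the 998 genes in the count tables, 41 met this rule: 8 fibrillar collagens, 5 basement membrane collagens, 10 other collagens, 10 glycoproteins and proteoglycans, and 8 metalloproteinases and inhibitors. No laminin, fibulin or fibrillin gene and no Tnc was among the measured genes.

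CosMx counts fluorescent RNA probes in segmented cells of a tissue section. The 22 sections, each 10 µm thick, came from 1 Nr4a1-/-Nr4a2-/- embryo (knockout, 13 sections) and 1 Nr4a1+/+Nr4a2+/+ embryo (wildtype, 9 sections), both at E10, cut through the aorta-gonad-mesonephros (AGM) region, in which blood stem cells form in the ventral wall of the dorsal aorta. Nr4a1 and Nr4a2 are nuclear receptors of 1 family, here deleted in the germ line and not in 1 cell type alone. Both embryos were untreated and backcrossed to C57BL/6J, and the level along the body axis at which each section was cut was not used here because the labels do not give it. With 1 embryo per genotype and no slide holding both, genotype, embryo, slide and section level cannot be told apart, and every p-value for a genotype difference measures only the spread between sections of the same embryo and is too small as a test of genotype.

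Collagens are secreted triple helices that fall into families by the structures they build. Fibrillar collagens give connective tissue its tensile strength, whereas type IV collagen forms the network of the basement membrane under endothelium and epithelium. Glycoproteins and proteoglycans bind cells, fibrils and growth factors, and metalloproteinases cut the matrix. In the embryonic aorta a basement membrane lies between endothelium and the surrounding mesenchyme, from which the smooth muscle of the wall is recruited.

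The tables held 37575 cells, of which 37570 passed the limits of 10 transcripts and 10 genes, and section totals ran from 169027 to 887896 transcripts. Levels are given as rates, the transcripts of a gene per 10000 counted transcripts of a section or of a cell group in it. The members held 5.11% of all transcripts, between 4.21% and 6.03% in the knockout sections (median 4.98%) and between 4.37% and 7.61% in the wildtype sections (median 4.81%). The depth behind a member ran from 1778 transcripts for Spp1 to 64553 for Col1a1 over all sections. For 8 members (Spp1, Col16a1, Col6a1, Thbs2, Col14a1, Vtn, Col17a1 and Col6a2) the mean rate was under 2 times the mean of the dimmest 5% of the panel, 2.50, at which signal and background of the assay are hard to separate. Spp1, the secreted phosphoprotein osteopontin, averaged 1.78 and lay below that mean.

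The targeted genes did not separate the genotypes. Nr4a1 had rates of 1.74, 2.25 and 2.65 (lowest, median, highest) in the knockout sections and 2.29, 2.72 and 3.20 in the wildtype sections, and Nr4a2 had 3.08, 4.12 and 5.09 against 3.37, 4.73 and 6.13. Both ranges overlapped, and the fitted log2 differences were -0.05 (SE 0.07, edgeR adjusted p = 0.716) and 0.03 (SE 0.09, adjusted p = 0.86). Nr4a1 lay close to the mean of the dimmest genes, and the positions of the probes relative to the deleted parts are not given in the sources used here. The labels, which set the sign of every genotype difference, were therefore not checked by these genes, and "knockout" and "wildtype" below stand for the sections labelled so. A figure legend of the study gives more wildtype than knockout sections, the reverse of the labels, which were used here. The legend's number of wildtype sections is also larger than the number labelled so.

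Sections 21 and 22, both wildtype, stood apart in their matrix genes. Col1a1, the α1 chain of type I collagen, had rates of 204.3 and 171.1 there, against 34.28 to 52.02 in the other 7 wildtype sections. Lum, the proteoglycan lumican, had 26.7 and 20.1 against 4.55 to 6.29, and Sparc, a collagen-binding glycoprotein, 51.61 and 43.97 against 18.7 to 32.2. Both sections lay above every other wildtype section for 11 of 41 members, among them Col1a2, Col3a1, Dcn, Col5a2 and Col18a1, and for 36 of all 998 genes. The rise of Col1a1 was not confined to 1 cell group: its rate in cells that passed no gate was 153.6 and 165.7 against 35.5 to 44.7 in the other wildtype sections, and that in erythroid-gated cells 61.3 and 79.0 against 9.03 to 13.2. Lum and Sparc were also higher there in cells that passed no gate, but not in every group. In endothelial-gated cells Lum had 4.63 and 6.48 against 1.39 to 6.51, and Sparc 47.05 and 64.83 against 31.95 to 75.69. Section 13, a knockout section of 836 cells, was the lowest of all sections for 16 members and the highest for 3, Col4a1 (94.5), Col4a2 (51.9) and Col11a1 (8.34). It also had the fewest transcripts of all sections (169027). The matching count over all genes is not given for this section, so these extremes are not shown to be particular to the members. These sections were singled out after their values were seen, and some of the results that rest on them are given with and without them.

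**Figure D1:**
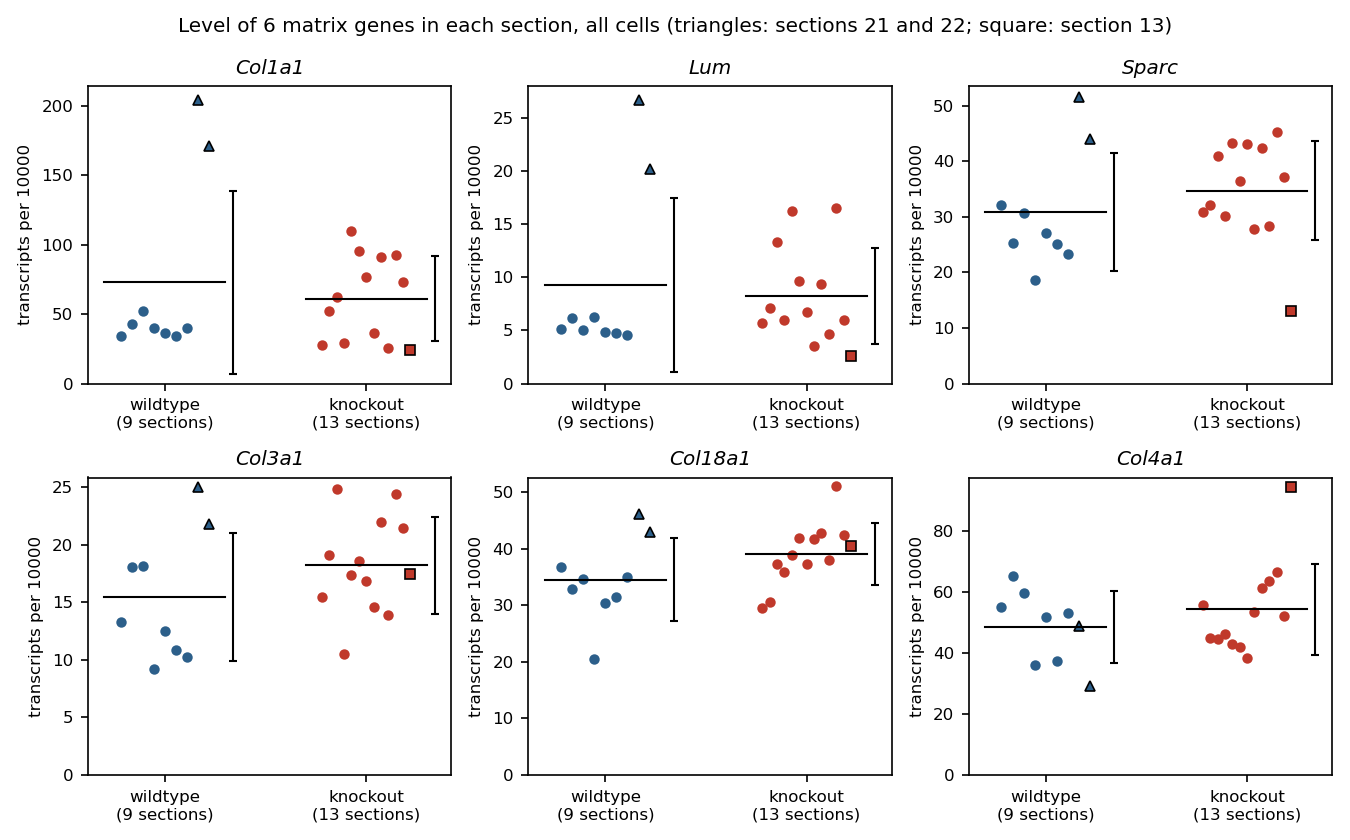
Transcripts per 10000 in each section for Col1a1, Lum, Sparc, Col3a1, Col18a1 and Col4a1, with knockout and wildtype sections side by side; the line is the mean and the bar the SD, triangles mark sections 21 and 22 and the square section 13. The Col1a1 and Lum values of sections 21 and 22 lie far above the 7 other wildtype sections, and section 13 is the highest for Col4a1 at 94.5.

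Cell groups were gated on marker genes that are not members: a cell entered a group when at least 3 transcripts of at least 2 listed markers made up at least 3 times the mean share. The groups held 1236 endothelial, 1600 erythroid, 796 macrophage, 829 smooth muscle, 1119 sclerotome-type (Foxc1, Foxc2, Pax1, Pax9), 1143 mesenchyme, 1113 epithelial and 817 neural cells, while 27720 cells passed no gate. A cell that passed both the sclerotome-type and the mesenchyme gate counted as sclerotome-type. The 1197 cells that passed any other combination of gates entered no group. Markers kept out of the gates differed in how well they followed the names. Cd34 was 5.62 times and Eng 2.08 times as high in endothelial-gated cells as in the others, and Tpm2 5.78 times and Myl9 3.71 times in smooth muscle-gated cells. Sox9 was 2.89 times as high in sclerotome-type cells, and Ezr 2.17 times in epithelial-gated cells. For the macrophage gate Ptprc reached 1.46 and Cd163 0.968, for the mesenchyme gate Cdh11 1.17 and Pdgfrb 1.05, and for the neural gate Celsr2 1.80 and Fgf13 1.0, so that these 3 names rest mainly on the gate genes themselves.

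Each gated group was compared with all other cells of the same sections. All 41 members were tested with all 998 genes in each of the 8 groups (edgeR quasi-likelihood test with the section as a block), and a member counts as called at a Benjamini-Hochberg adjusted p under 0.05. As the sections come from 1 embryo of each genotype, the p-values of these contrasts measure the spread between sections and not between embryos. There were 42 calls upward and 54 downward: 27 members were higher in at least 1 group, 16 were higher in 1 group and lower in another, and 8 were called in none (Col6a1, Col6a3, Col8a1, Col9a3, Col16a1, Mmp1a, Mmp12 and Timp1). Of all 998 genes, 2.0% to 31.7% were called higher and 3.01% to 21.1% lower, depending on the group. These totals over the groups were not set against all genes, and the shares are given group by group below. Counts were summed over the cells of a group. A lower value can therefore come from fewer cells that hold a transcript or from fewer of its transcripts in each, and these were not separated.

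**Figure D2:**
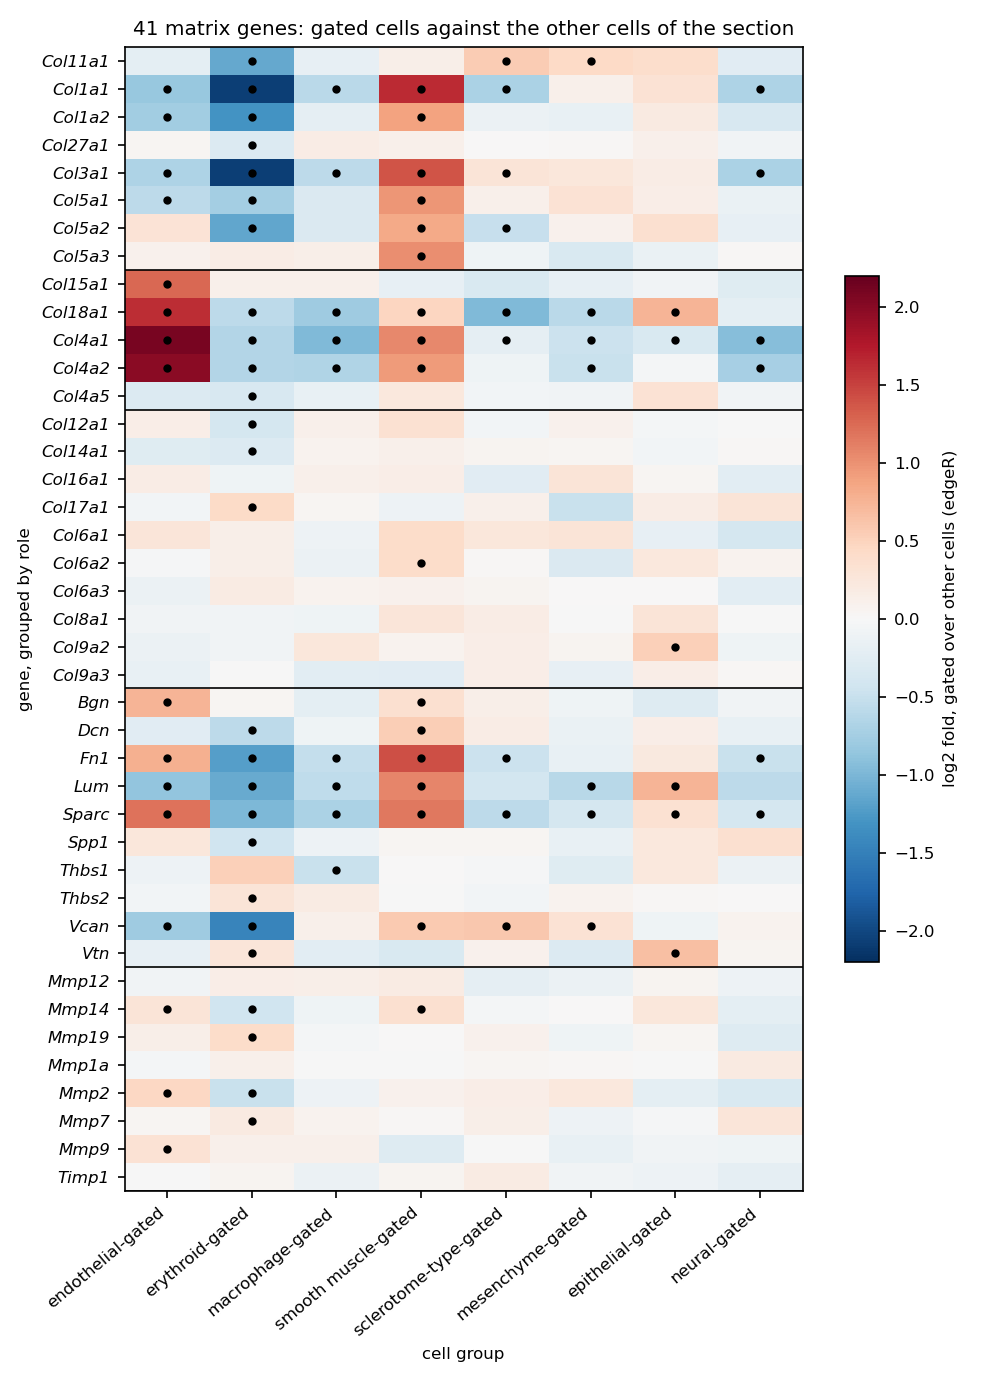
Log2 fold of each of the 41 members (rows, by role) in 8 gated cell groups (columns) over all other cells of the same sections; colour gives the fitted log2 fold and a dot an adjusted p under 0.05. Of the basement membrane collagens 4 of 5 are called higher in endothelial cells, and of the 8 fibrillar collagens 4 are called lower there, 7 lower in erythroid cells and 6 higher in smooth muscle cells.

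Endothelial-gated cells held more of 4 basement membrane collagens and less of 4 fibrillar ones than the other cells. Of the members, 10 rose and 6 fell, against 12.5% and 7.72% of all genes, and the median log2 fold was -0.02 for the members and -0.04 for all genes. By role, 4 of 5 basement membrane collagens rose, 4 of 8 fibrillar collagens fell and none of these rose, and 3 of 8 metalloproteinases and inhibitors rose. The summed rate of the endothelial gate list was 370.6 in these cells and 68.9 in cells that passed no gate; that of the smooth muscle list was 26.9 against 26.1 and that of the erythroid list 150.1 against 89.7.

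Col4a1 and Col4a2 encode the chains of the most widespread type IV collagen. Col4a1 had rates of 117.5, 180.0 and 254.2 (lowest, median, highest of 22 sections) in endothelial-gated cells and 26.6, 47.3 and 90.0 in the other cells, a log2 fold of 2.09 (SE 0.05, adjusted p = 1.9e-83). Col4a2 had 49.5, 91.1 and 154.8 against 17.2, 23.6 and 48.7, a log2 fold of 1.99 (SE 0.06). Both were higher in the endothelial cells of 22 of 22 sections, and neither gene's ranges overlapped. In GRCm38.p6 the genes lie head to head on chromosome 8, Col4a1 at chr8:11198423-11312889 on the minus strand and Col4a2 at chr8:11312805-11449287 on the plus strand, with annotated starts that overlap by 85 bases.

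Col18a1, whose type XVIII collagen carries endostatin at its end, had rates of 55.9, 98.4 and 132.8 in endothelial-gated cells and 18.98, 34.71 and 47.66 in the others, again without overlap (log2 fold 1.63, SE 0.06). Col15a1, of the related type XV collagen, had 6.50, 14.1 and 28.5 against 3.60, 6.14 and 9.56 (log2 fold 1.26, SE 0.10) and was higher in 22 of 22 sections although the ranges overlapped. Sparc (log2 fold 1.20, SE 0.07) and Fn1, the fibronectin gene (0.78, SE 0.08), were each higher in 21 sections. Among the others that rose were Bgn, the proteoglycan biglycan (0.74), the gelatinases Mmp2 (0.45) and Mmp9 (0.33), and Mmp14 (0.29), a membrane protease known to activate Mmp2. The Mmp9 and Mmp14 calls were lost under library-size scaling (adjusted p = 0.15 and 0.0752), and the Mmp9 call also without sections 21 and 22 (0.0512). With a gate at 5 times the mean share Mmp9 stood at -0.25.

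The 4 fibrillar chains called in endothelial-gated cells were lower there. Col1a1 had rates of 5.73, 31 and 82.5 there and 24.8, 47.8 and 209.4 in the other cells and was lower in 21 of 22 sections (log2 fold -0.84, SE 0.15). Col1a2, the partner chain, was lower in 22 sections (-0.77), Col3a1, of type III collagen, in 21 (-0.69, SE 0.12) and Col5a1, of the type V collagen that starts fibrils, in 20 (-0.57). The Col3a1 contrast was -1.07 in the knockout and -0.21 in the wildtype sections alone. Lum (-0.87) and Vcan (-0.78), the large proteoglycan versican, fell with them. Spp1 was not called (0.26, adjusted p = 0.464).

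Promoter sequences are shown for 3 collagens called in both endothelial and smooth muscle cells: Col1a2 and Col3a1, low in the first and high in the second, and Col18a1, high in both. Each run is the 250 bases before the annotated start (RefSeq, GRCm38.p6), 5′ to 3′ on the strand of the gene, with capitals for the motif CCAAT, for TATAAA and for the motif GGGCGG, each searched on either strand. Col1a2 is at chr6:4505368-4505617 on the plus strand, Col3a1 at chr1:45311288-45311537 on the plus strand and Col18a1 at chr10:77166531-77166780 on the minus strand.
Col1a2: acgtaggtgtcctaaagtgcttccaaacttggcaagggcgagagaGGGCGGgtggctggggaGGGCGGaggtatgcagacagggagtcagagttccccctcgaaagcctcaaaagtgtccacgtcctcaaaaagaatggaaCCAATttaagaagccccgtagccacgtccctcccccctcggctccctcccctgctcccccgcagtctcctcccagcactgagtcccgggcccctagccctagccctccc
Col3a1: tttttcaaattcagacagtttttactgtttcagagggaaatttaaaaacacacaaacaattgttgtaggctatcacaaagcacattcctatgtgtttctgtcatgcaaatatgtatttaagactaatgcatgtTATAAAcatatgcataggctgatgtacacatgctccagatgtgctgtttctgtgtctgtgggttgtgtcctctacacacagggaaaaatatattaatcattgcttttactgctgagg
Col18a1: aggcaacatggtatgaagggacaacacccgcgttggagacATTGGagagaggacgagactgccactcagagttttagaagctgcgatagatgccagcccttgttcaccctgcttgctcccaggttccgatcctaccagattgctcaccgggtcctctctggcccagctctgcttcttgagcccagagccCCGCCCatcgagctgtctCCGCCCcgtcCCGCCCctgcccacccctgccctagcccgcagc

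The Col1a2 window held 1 CCAAT and 2 GGGCGG, the Col3a1 window 1 TATAAA, and the Col18a1 window 1 CCAAT (as ATTGG) and 3 GGGCGG (as CCGCCC). Windows were found for 29 of 41 members, of which 15 held CCAAT, 7 TATAAA and 16 GGGCGG. Among 27025 windows of the same length the shares were 34.5%, 13.0% and 32.9%. The CArG box, the element of serum response factor, was in no member's window and in 1.4% of all windows. These matches describe the letters of the windows only.

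In smooth muscle-gated cells (Tagln, Acta2, Actg2, Myh11), 17 members rose and none fell by edgeR, against 7.52% and 4.71% of all genes; DESeq2 called 18 and 0, and at an unadjusted p under 0.05 there was 1 lower member. The median log2 fold was 0.24 for the members and -0.03 for all genes. By role, 6 of 8 fibrillar collagens, 3 of 5 basement membrane collagens, 6 of 10 glycoproteins and proteoglycans, 1 of 10 other collagens and 1 of 8 metalloproteinases and inhibitors rose. The summed rate of the smooth muscle list was 209.9 in these cells, that of the endothelial list 80.4 (68.9 in cells that passed no gate) and that of the mesenchyme list 52.5 (83.9).

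Col1a1 had rates of 41.96, 147.3 and 1023 (lowest, median, highest) in smooth muscle-gated cells and 22.04, 40.86 and 168.3 in the others, and was higher in 22 of 22 sections (log2 fold 1.65, SE 0.14). The highest values were those of sections 21 (534.2, 82 cells) and 22 (1023, 20 cells), while the other wildtype sections ran from 41.96 to 220.6. Without both sections the log2 fold was 1.55 and still called. Col3a1 had 13.8, 37.5 and 102.1 against 8.99, 15.8 and 24.2 and rose in 22 sections (1.39), and Fn1 had 16.3, 48.0 and 69.0 against 11.2, 18.6 and 24.7 and rose in 21 (1.41). The ranges of all 3 genes overlapped between smooth muscle and other cells, so that the difference stood within sections rather than across them.

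The remaining fibrillar chains that rose in smooth muscle-gated cells were Col5a3 (1.02), Col5a1 (0.97), Col1a2 (0.89) and Col5a2 (0.83), the type V chains being minor partners of type I fibrils. Sparc rose in 22 sections (1.16, SE 0.09). Lum rose by 1.07 but in only 15 of 22 sections, and with the wildtype sections alone it was not called (0.93, adjusted p = 0.17). The basement membrane chains Col4a1 (1.05, in 21 sections), Col4a2 (0.93) and Col18a1 (0.48, in 14 of 22 sections) also rose. Without sections 21 and 22 Col18a1 was at 0.38 and still called, and with a gate at 2 times the mean share at 0.23 and not called (adjusted p = 0.0757). Smaller rises were called for Vcan (0.57), Dcn, the fibril-binding decorin (0.55), Col6a2, of beaded filaments (0.40), Mmp14 (0.36) and Bgn (0.35). Spp1 was at 0.04 and not called, and both Col6a2 and Spp1 lie near the lowest level of the panel.

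**Figure D3:**
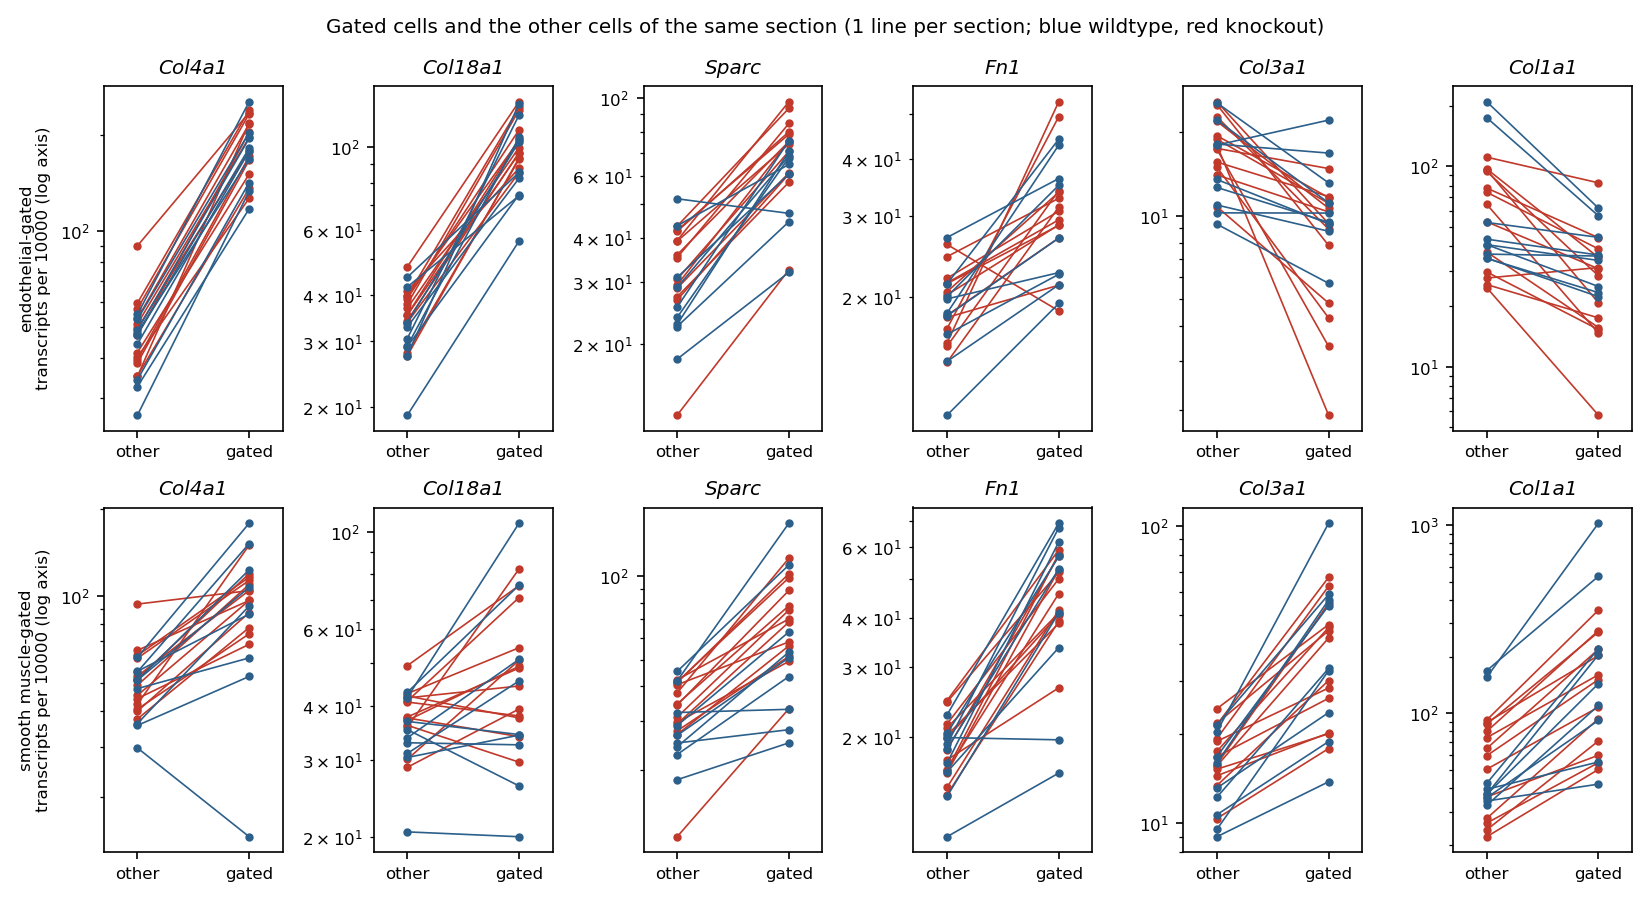
Rate per 10000 transcripts (log axis) in gated cells and in all other cells of the same section for Col4a1, Col18a1, Sparc, Fn1, Col3a1 and Col1a1, with endothelial cells in the upper row and smooth muscle cells in the lower; each line is 1 section, blue wildtype and red knockout. Col4a1 rises in endothelial cells along all 22 lines, whereas Col1a1 falls along 21 of them there and rises along all 22 in smooth muscle cells.

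Erythroid-gated cells were the poorest in matrix transcripts. Here 21 members fell and 5 rose, against 21.1% and 31.7% of all genes, with a median log2 fold of -0.29 for the members and 0.09 for all genes. Col1a1 had rates of 3.31, 10.9 and 79.0 against 25.8, 50.5 and 212 and fell by 2.07 on the log2 scale, and Col3a1 also fell by 2.07 and was lower in 22 of 22 sections. Vcan fell by 1.45, Col1a2 by 1.31, Fn1 by 1.20, Col5a2 by 1.15, Col11a1 by 1.12, Lum by 1.11, Sparc by 0.99, Col5a1 by 0.74, Col4a2 by 0.65, Col4a1 by 0.64 and Spp1 by 0.44. The 5 rises were those of Col17a1, a transmembrane collagen of hemidesmosomes (0.41), Mmp19 (0.40), Thbs2 (0.29), Vtn (0.26) and Mmp7 (0.20). Of the members named here, Spp1, Col17a1, Thbs2 and Vtn lie near the lowest level of the panel, at which signal and background are hard to separate. Hemoglobin made up 18.4% of the transcripts of these cells and DESeq2 called 2 of the members higher.

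Macrophage-gated cells (C1qa, C1qb, C1qc, Csf1r and others) had 9 members lower and none higher, against 5.31% and 2.0% of all genes. No member was higher at an unadjusted p under 0.05 by edgeR, and DESeq2 called 0 higher and 9 lower. Col4a1 had rates of 16.3, 26.7 and 62.1 against 29.7, 52.4 and 95.1 and was lower in 22 of 22 sections (log2 fold -0.97). Col18a1 (-0.79), Sparc (-0.70), Col4a2 (-0.66), Col1a1 (-0.59), Col3a1 (-0.57), Lum (-0.56), Fn1 (-0.53) and Thbs1, the adhesive thrombospondin (-0.49), fell too. Mmp12, known as macrophage elastase, and Spp1, a gene of many activated macrophages, were called in neither direction, Spp1 standing at -0.11, nor was Col1a2 (-0.20). Without sections 21 and 22 the call for Lum was lost (adjusted p = 0.0634).

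In sclerotome-type cells 3 members rose and 6 fell, against 2.1% and 3.91% of all genes. Vcan had rates of 14.49, 20.03 and 32.82 against 10.55, 14.02 and 18.05 and was higher in 22 of 22 sections (log2 fold 0.59, SE 0.07). The sclerotome-type group includes, by its definition, cells that also passed the mesenchyme gate. The summed rate of the mesenchyme list was 111.5 in sclerotome-type cells and 83.9 in cells that passed no gate. Its part in the rise of Vcan and Col11a1, which were also higher in mesenchyme-gated cells, was not tested. Col11a1, a fibrillar chain of cartilage, rose by 0.56 and Col3a1 by 0.29. Col18a1 fell by 0.97, in 22 sections, and Col1a1 by 0.69, Sparc by 0.58, Col5a2 by 0.50, Fn1 by 0.48 and Col4a1 by 0.19. Of the falls, Col1a1 was at -1.08 in the knockout and -0.20 in the wildtype sections alone, Sparc at -0.87 and -0.15 and Fn1 at -0.68 and -0.18, and with the wildtype sections alone 2 members were called in place of 9. Col1a2 (-0.12), Col4a2 (-0.09) and Spp1 (0.05) were not called. The Col1a1 and Col4a1 calls were lost without sections 21 and 22 (adjusted p = 0.0767 for each).

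Mesenchyme-gated cells (Twist1, Twist2, Pdgfra, Snai2) had Col11a1 (0.44) and Vcan (0.32) higher and 5 members lower, against 7.11% and 4.81% of all genes. The lower members were Lum (-0.61), Col18a1 (-0.60), Col4a2 (-0.49), Col4a1 (-0.48) and Sparc (-0.39). Not called were Col3a1 (0.24), Col1a1 (0.11), Col1a2 (-0.17), Fn1 (-0.16) and Spp1 (-0.16). Lum was lower in the knockout sections alone (-1.19) and stood at 0.19 in the wildtype sections alone. DESeq2 called 0 members higher in these cells, and without sections 21 and 22 the Col11a1 call was lost (adjusted p = 0.0717). With a gate at 5 times the mean share in place of 3, Col11a1 and Vcan were at -0.65 and -0.21, so their direction here depended on the gate.

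Epithelial-gated cells shared the high Col18a1 of endothelial cells but not the high type IV collagen. Of the members, 5 rose and 1 fell, against 4.21% and 3.21% of all genes. Col18a1 had rates of 19.2, 55.4 and 103 against 20.57, 36.96 and 48.09 and was higher in 19 of 21 sections (log2 fold 0.76). Lum (0.75), Vtn, the adhesive protein vitronectin (0.66), Col9a2, of a collagen found on the surface of cartilage fibrils (0.52), and Sparc (0.33) rose too. Of these, Vtn lies near the lowest level of the panel. Col4a1 fell by 0.34 but stood at 0.0090 with a gate at 5 times the mean share. The other genes followed throughout were not called, with Col1a1 at 0.32, Spp1 at 0.23, Fn1 and Col1a2 at 0.21, Col3a1 at 0.17 and Col4a2 at -0.05. With the wildtype sections alone 1 member was called in place of 6, and with a gate at 2 times the mean share 11 were.

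In neural-gated cells 6 members fell and none rose, against 3.01% and 2.3% of all genes; none was higher at an unadjusted p under 0.05 by edgeR, and DESeq2 called 0 higher and 6 lower. Col4a1 had rates of 3.30, 30.43 and 43.02 against 29.7, 52.4 and 96.6 and was lower in 22 of 22 sections (log2 fold -0.94). Col4a2 (-0.73), Col3a1 (-0.70), Col1a1 (-0.67), Fn1 (-0.49) and Sparc (-0.38) fell with it, the last not without sections 21 and 22 (adjusted p = 0.0547). Col1a2 (-0.35) and Spp1 (0.35) were not called.

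Partners of the matrix were read in the same fits from 3 lists: 7 genes of collagen crosslinking and processing, 7 other matrix proteins and 17 receptors. Endothelial-gated cells had 5 of 17 receptors higher and 2 lower, against 12.5% and 7.72% of all genes. The higher ones were the integrin chains Itga5 (1.04), Itga6 (0.93), Itgb1 (0.83) and Itga2 (0.45) and the hyaluronan receptor Cd44 (0.48), and the lower ones the collagen receptors Ddr1 (-0.49) and Mrc2 (-0.60). Itga5 pairs with Itgb1 to bind fibronectin, and Itga6 in its known pairs binds laminin. Sparcl1, a relative of Sparc, was higher there too (0.50), as was Vwf (1.93), which is a gate gene of these cells. Smooth muscle-gated cells had Itgb1 (0.64), the crosslinking enzyme Loxl2 (0.31) and the collagen chaperone Serpinh1 (0.49) higher. They also had Vwf, von Willebrand factor of endothelium, higher (0.47, adjusted p = 0.00101), and its part in the rise of Col4a1, Col4a2 and Col18a1 there was not tested. Serpinh1 was called in 7 of the 8 groups, higher in endothelial (0.33), smooth muscle, mesenchyme (0.26) and epithelial cells (0.22) and lower in erythroid (-1.77), macrophage (-0.49) and neural cells (-0.42).

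Erythroid-gated cells had 8 of 17 receptors lower and 1 higher, against 21.1% and 31.7% of all genes. The lower ones were Itgb1 (-0.90), Mrc2 (-0.76), Itgb8 (-0.68), Itga6 (-0.33), Itgav (-0.32), Ddr2 (-0.31), Itga1 (-0.29) and Itga5 (-0.27), and the higher one Itgb4 (0.28). The collagen-modifying enzymes Plod2 (-0.71), Bmp1 (-0.56) and Loxl2 (-0.23) and the matrix protein gene Sparcl1 (-0.41) were lower, and Tnxb (0.27), Vwa1 (0.27) and Loxl3 (0.21) higher. Sclerotome-type cells had Sparcl1 (0.76) and Mrc2 (0.35) higher. Mesenchyme-gated cells had Mrc2 (0.41) higher and Vwf (-0.52), Ddr1 (-0.505) and Itga6 (-0.37) lower. In epithelial-gated cells the receptors Itga3 (0.78), Ddr1 (0.37) and Itga6 (0.34) were higher, and in neural-gated cells Itgb8 (0.74) and Ddr1 (0.47) were higher and Itga8 (-0.57) lower.

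Over the 175 combinations of section and gated group, the genes most like Col1a1 by Spearman correlation of their rates were Col3a1 (0.66), Tpm1 (0.63) and Col1a2 (0.63). Those most like Col4a1 were Col4a2 (0.89), Igf2 (0.63) and Fn1 (0.60), and those most like Fn1 were Igf2 (0.76), Sparc (0.69) and Cald1 (0.68). The coefficient between Col1a1 and Col4a1 was 0.07. Points of 1 section share their depth and their slide, and points of 1 group share their gate, so these coefficients are descriptions.

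The genotype comparison asked which members differed between sections of the knockout and the wildtype embryo. Over all cells 2 members were higher in the knockout sections and none was lower, against 9.82% and 2.71% of all 998 genes; DESeq2 called 5 higher and 0 lower (11.5% and 4.31% of all genes). At an unadjusted p under 0.05 there were 12 higher and 5 lower members, 17 of 41 against 26% of all genes. The median log2 fold was 0.06 for the members and -0.03 for all genes.

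Col18a1 had rates of 29.5, 38.9 and 51.1 (lowest, median, highest) in the 13 knockout sections and 20.5, 34.7 and 46.1 in the 9 wildtype sections, with ranges that overlapped. Its fitted log2 fold was 0.45 (SE 0.13, edgeR adjusted p = 0.0208), and it was not called among the sections numbered 1 in their names (0.44, adjusted p = 0.163). With the sections summed by genotype and number, neither Col18a1 (0.48, adjusted p = 0.15) nor Mmp2 (0.31, 0.268) was called, while Col3a1 (0.61, 0.00287) and Col5a2 (0.46, 3.4e-04) were. Mmp2 had 14.8, 19.1 and 21.3 against 15.9, 17.8 and 22.5 and a log2 fold of 0.31 (SE 0.10, adjusted p = 0.0275), with overlapping ranges and a call that was lost when section 8, 9, 15, 16, 17 or 21 was left out (adjusted p from 0.0507 to 0.0633). When 1 section was left out the count of called members ran from 1 (without section 8, 9, 15 or 17) to 5 (without section 4 or 13), with 4 without section 5, 7, 14 or 21. The share of all genes called is not given for these fits. The folds were fitted after TMM scaling. With library size alone the median of all genes moved to -0.30 and that of the members to -0.21, 0 members were higher and 20 lower (5.81% and 72.0% of all genes), and Col18a1 (0.18, adjusted p = 0.148) and Mmp2 (0.04, 0.644) were not called.

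The other genes followed throughout were not called by genotype over all cells. Col3a1 stood at 0.51 (adjusted p = 0.0576), Col4a2 at 0.45 (0.0544), Col4a1 at 0.44 (0.0833), Sparc at 0.43 (0.13), Fn1 at 0.35 (0.0868), Col1a2 at 0.21 (0.602) and Spp1 at 0.02 (0.924). The type IV chains are given also by the number, 1 or 2, in the section names, a split whose difference was not tested: Col4a1 stood at -0.03 and Col4a2 at 0.06 among those numbered 1 (adjusted p = 0.943 and 0.885), and at 0.88 and 0.83 among those numbered 2 (0.0082 and 0.0056). Col1a1 had rates of 24.2, 62.0 and 109.9 in the knockout and 34.3, 40.3 and 204.3 in the wildtype sections and a log2 fold of 0.01 (95% interval -0.74 to 0.76), wide enough to hold changes of over 1.5 times in either direction. The rates of 2 members did not overlap between the genotypes: Col6a3, of beaded filaments, ran from 5.33 to 9.72 in the knockout and from 10.3 to 13.5 in the wildtype sections, and Mmp12 from 4.37 to 6.10 and from 6.29 to 10.5. Rates that did not overlap and were lower in the knockout were found for 3.81% of all genes, and in the TMM-scaled fit neither was called (-0.18, adjusted p = 0.109, and -0.16, 0.139).

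Without sections 21 and 22, 7 members were higher in the knockout sections and 0 lower, against 9.62% and 2.4% of all genes. They were Lum (0.95), Col1a1 (0.89), Col3a1 (0.75), Sparc (0.68), Col18a1 (0.58), Col5a2 (0.51) and Dcn (0.32), while Mmp2 was no longer called (0.30, adjusted p = 0.0788). Without section 13 as well, Fn1 (0.38) joined them and 8 members were called, against 11% of all genes higher and 3.51% lower. Since these sections were left out for their collagen rates, these values describe how much the comparison rests on them and are no test. The number in the section names, 1 or 2 in each genotype, gave Col1a1 a log2 fold of 0.86 among the sections numbered 1 and -0.43 among those numbered 2, which include sections 21 and 22. Summed marker rates also differed between the genotypes: the endothelial list ran from 65.7 to 85.5 in the knockout and from 86.5 to 105.6 in the wildtype sections, the macrophage list from 30.9 to 37.2 and from 41.6 to 57.8, and the mesenchyme list from 64.3 to 113 and from 55.5 to 86.1; their part in the differences above was not tested. These sums are scaled to library size, on which the median of all genes was also lower in the knockout sections, by 0.30 on the log2 scale. In cells that passed no gate, Col18a1 (0.47, adjusted p = 0.0105) and Col3a1 (0.52, 0.0377) were called, against 9.62% of all genes higher.

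**Figure D4:**
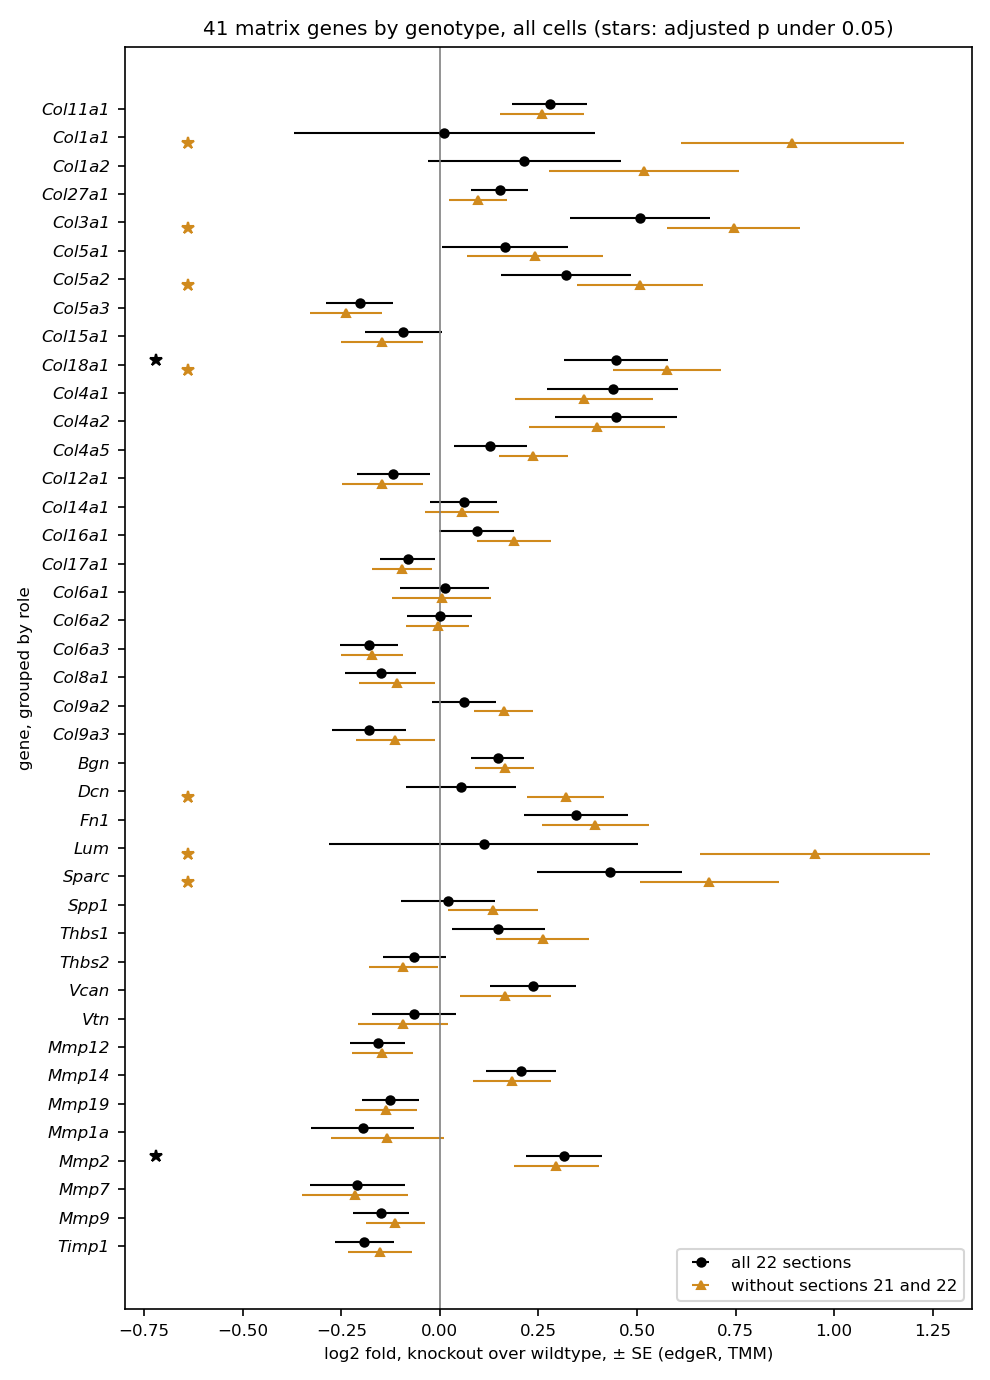
Log2 fold of knockout over wildtype sections with its SE for each of the 41 members over all cells; black points use all 22 sections, orange triangles leave out sections 21 and 22, and stars mark an adjusted p under 0.05. Col1a1 moves from 0.01 to 0.89 and Lum from 0.11 to 0.95 when both sections are left out.

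Within the gated groups not all members passed the filter on low counts: 20 of 41 in endothelial, 34 in erythroid, 14 in macrophage, 27 in smooth muscle, 24 in sclerotome-type, 12 in mesenchyme, 26 in epithelial and 10 in neural cells. By edgeR 4 member calls were made over the 8 groups, all lower in the knockout sections, 1 in sclerotome-type cells (10.8% of the tested genes higher, 2.26% lower) and 3 in neural cells (22.7% higher, 12.9% lower). None was called in endothelial (9.25% of tested genes called in either direction), erythroid (3.46%), macrophage (9.74%), smooth muscle (2.97%), mesenchyme (6.02%) or epithelial cells (0.688%). At an unadjusted p under 0.05 there were 3, 6, 1, 2, 0 and 4 members in these 6 groups, where 22.5%, 11.8%, 23.1%, 15.8%, 24.7% and 16.5% of the tested genes were, and DESeq2 called 0 members in each of them.

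In sclerotome-type cells Col1a1 had rates of 15.1, 27.7 and 37.4 in the knockout and 31.7, 50.5 and 91.3 in the wildtype sections, ranges that overlapped, and a log2 fold of -0.77 (SE 0.16, edgeR adjusted p = 1.1e-04). Without sections 21 and 22 it was at -0.43 and not called (adjusted p = 0.103), and with a gate at 2 times the mean share at -0.47 (0.169). In neural cells Mmp2 had 6.12, 11.6 and 23.1 against 10.5, 17.1 and 22.6 (-0.74, adjusted p = 0.0204), and Col1a2 (-0.80, 0.0277) and Mmp14 (-0.67, 0.0439) were lower as well. Of these, Col1a2 and Mmp14 were lower in 3 of the 4 pairings of numbered section sets and Mmp2 in all 4. With the sections summed by genotype and number none of these calls stood, with Col1a1 at -0.46 (adjusted p = 0.107) in sclerotome-type cells and Mmp2 at -0.40 (0.771) and Col1a2 at -0.33 (0.839) in neural cells. With no filter on genes the neural values of Mmp2 (-0.28) and Col1a2 (-0.34) were not called either. The neural group had the largest share of all genes called.

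In endothelial cells, the type from which blood stem cells arise, Col4a1 had rates of 126.8, 196.4 and 239.1 in the knockout and 117.5, 178.2 and 254.2 in the wildtype sections, a log2 fold of 0.15 (95% interval -0.09 to 0.39). Sparc stood at 0.34 (adjusted p = 0.131), Col4a2 at 0.26 (0.327), Col1a1 at -0.31 (0.585) and Col3a1 at -0.41 (0.279). In smooth muscle cells Col1a1 ran from 50.2 to 353 in the knockout and from 41.96 to 1023 in the wildtype sections, at -0.79 (SE 0.54, 95% interval -1.84 to 0.27, adjusted p = 0.543). The wildtype rates of 534.2 and 1023 were those of sections 21 and 22, and the other wildtype sections ran from 41.96 to 220.6 (median 109.9). This fold includes both sections, and its value without them is not given here. All ranges named here overlapped between the genotypes. Over the 8 groups the fitted values ran from -0.79 to 0.16 for Col1a1, from -0.80 to 0.40 for Col1a2, from -0.27 to 0.77 for Col4a1, from -0.48 to 0.74 for Col4a2, from -0.28 to 0.52 for Fn1 and from -0.32 to 0.47 for Sparc. Col3a1, which passed the filter in 7 of them, ran from -0.41 to 0.87, and Spp1 passed it in none.

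Whether a cell group's contrast with the other cells differed between the embryos was tested as an interaction over all 998 genes. It was called for 3 members. In endothelial cells the log2 contrast of Col3a1 was -1.07 in the knockout and -0.21 in the wildtype sections, a difference of -0.87 (SE 0.19, edgeR adjusted p = 0.00469), against 1.0% of all genes lower. In sclerotome-type cells that of Sparc was -0.87 and -0.15, a difference of -0.74 (SE 0.16, adjusted p = 0.0124), against 0.301% of all genes, and in mesenchyme cells that of Lum was -1.19 and 0.19, a difference of -1.39 (SE 0.33, adjusted p = 0.0306), against 0.1%. None of the 3 was called with a gate at 2 or at 5 times the mean share, and at 5 times the difference for Lum turned to 1.11. The remaining genes followed throughout were not called in any group, with differences from -0.89 to 0.43 for Col1a1, -0.57 to 0.31 for Col1a2, -0.24 to 0.30 for Col4a1, -0.46 to 0.34 for Col4a2, -0.52 to 0.26 for Fn1 and -0.46 to 0.22 for Spp1. By edgeR no member was called in the other 5 groups, in which 0.0% (smooth muscle), 0.501% (erythroid), 0.2% (macrophage), 0.701% (epithelial) and 0.2% (neural) of all genes were called in either direction. The members with an unadjusted p under 0.05 there numbered 2, 4, 2, 6 and 5 of 41 in the same order, where 5.11%, 7.21%, 8.02%, 7.72% and 6.71% of all genes had one.

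Of the 31 partner genes, 3 were higher in the knockout sections over all cells, a share close to the 9.82% of all genes: Serpinh1 (0.68, adjusted p = 0.00141), Sparcl1 (0.41, 0.0139), and Itgb1 (0.39, 0.00351). Serpinh1 was also higher in endothelial (0.39, 0.0314), macrophage (0.46, 0.0479) and sclerotome-type cells (0.46, 0.00784). Vwf was lower in endothelial cells (-0.61), among which it is 1 of the 10 gate genes. No partner gene was called in the tests of the difference between the embryos.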

How the data were processed

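The authors imaged fresh frozen sections on the CosMx Spatial Molecular Imager, segmented cells and assigned transcripts with AtoMx, and deposited raw transcript counts per cell and gene, with no normalization; Seurat is named in the submitters' processing notes. Some labels name fixed tissue and a human panel where the methods give fresh frozen mouse tissue and a mouse panel, and the files hold mouse gene symbols. The authors' limit on cell area was not applied. Cells with fewer than 10 transcripts or 10 genes were left out (5 of 37575), and no 2 sections among 231 pairs had identical tables.

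Groups were taken from the genotype labels. Counts were summed per section, and per section and gated group with at least 10 cells, with at least 4 sections per genotype (epithelial cells: 13 and 8 sections, the others 13 and 9). Sums were fitted in edgeR 4.0.16 (R 4.3.3, TMM scaling, filterByExpr, robust quasi-likelihood F test, Benjamini-Hochberg adjustment over all genes tested, threshold 0.05). Contrasts of a gated group with other cells had the section as a block, and the difference between the embryos was its interaction with genotype. SE is the absolute log2 fold divided by the square root of F. DESeq2 1.42.0 was the other tool. Scripts were tested on simulated data.

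The alternatives were scaling, gene filter, gate, cells that pass several gates, numbered section sets and each section left out. Those without sections 13, 21 and 22 were chosen after seeing the data. The members and lists were chosen with earlier results of these data known. In every comparison Col1a1, Col1a2, Col3a1, Col4a1, Col4a2, Fn1, Sparc and Spp1 were named, with at most 10 called members per direction by size of fold, 3 likest genes for Col1a1, Col4a1 and Fn1, and called genes of the 3 partner lists. In genotype comparisons the rule asks for the same direction in all 4 pairings of numbered sets. Members named outside it were chosen after their values were seen.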

Additional observations from a re-analysis of the deposited data

Results flagged for a closer look

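In 3 of 33 members tested, 1 wildtype section lay far from the others over all cells. Chance gives about 1 in 20 such cases. Col4a5, a chain of the specialised type IV collagen, reached 10.7 transcripts per 10000 in section 22, against 5.66 to 8.03 in the wildtype sections other than 21 and 22. Col9a2 reached 11.4 in section 21, against 7.0 to 8.92. Mmp12 reached 10.5 in a wildtype section other than 21 and 22, in which it was at 7.35 and 6.98.

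The contrast of a gated group with the other cells differed between the embryos for 3 members by the interaction test. The difference, knockout minus wildtype on the log2 scale, was -0.87 for Col3a1 in endothelial cells, -0.74 for Sparc in sclerotome-type cells and -1.39 for Lum in mesenchyme cells. With a gate at 2 times the mean share the values were -0.30, -0.41 and -0.84 and with a gate at 5 times -1.39, -0.57 and 1.11, none of them called.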

How the results depend on the processing

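Over all cells 2 members were called by genotype. The count was 20, all lower, with library size alone, 5 with DESeq2 and 6 with the sections numbered 2 alone. Of all 998 genes, 58 were higher and 719 lower with library size alone, 115 and 43 with DESeq2 and 94 and 4 with the sections numbered 2 alone. The reported fit had 98 and 27. It was 7 without sections 21 and 22 and 8 without sections 13, 21 and 22, both chosen after seeing the data. With 1 section left out it ran from 1 (without section 8, 9, 15 or 17) to 5 (without section 4 or 13), with 4 without section 5, 7, 14 or 21. For the fits with 1 section left out the share of all genes is not given.

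Within the gated groups 4 members were called by genotype. There were 27 with library size alone, 9 with a gate at 2 times the mean share, 2 with no filter on genes, 2 with sums of numbered sets and 0 with the sections numbered 1 alone. Of all genes tested, summed over the groups, 6.96% were called in the reported fit and 21.03%, 5.12%, 2.58%, 1.32% and 1.87% under these settings. With sums of numbered sets the calls in sclerotome-type and neural cells were lost, and those made were for Thbs1 in erythroid and Col3a1 in epithelial cells. With 1 section left out there were 2 (without section 3, 15, 16, 17 or 21) to 6.

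Counts of members called by cell group were within 1.5 times in endothelial, erythroid and smooth muscle cells under every alternative run. With the wildtype sections alone, macrophage cells had 5 in place of 9, sclerotome-type cells 2 in place of 9, mesenchyme cells 3 in place of 7, epithelial cells 1 in place of 6 and neural cells 3 in place of 6. Mesenchyme cells had 15 with a gate at 5 times the mean share and epithelial cells 11 with a gate at 2 times. The share of all genes called under these settings is not given, so the counts do not show whether the members changed more than the panel.

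The difference between the embryos was called for 3 members. It was called for 0 with a gate at 2 or at 5 times the mean share, for 1 when cells passing several gates were assigned to the group of highest share, for 1 with the sections numbered 1 alone, for 0 with those numbered 2 alone and for 5 without sections 21 and 22. These counts too are given without the share of all genes.

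Among values called in at least 1 of the fits compared, the direction by genotype over all cells turned with library size alone for Spp1 (-0.25), Col6a1 (-0.26), Col14a1 (-0.21) and Col9a2 (-0.20). With a gate at 5 times the mean share it turned for Mmp9 in endothelial cells (-0.25), for Col6a3 (-2.31), Mmp14 (-1.03), Col1a1 (-0.81), Col11a1 (-0.65) and Vcan (-0.21) in mesenchyme cells, for Col4a1 in epithelial cells (0.0090) and for the difference between the embryos of Lum in mesenchyme cells (1.11). With the wildtype sections alone it turned for Lum in mesenchyme cells (0.19). By genotype within groups it turned for Lum in smooth muscle cells without sections 21 and 22 (from -0.23 to 2.09, adjusted p = 0.0456) and without sections 13, 21 and 22 (2.19), for Col18a1 in sclerotome-type cells with a gate at 5 times (-0.83) and for Mmp14 in neural cells with the sections numbered 2 alone (0.05). Among values by genotype over all cells that were called in neither fit, the sign turned with library size alone for Col1a1 (-0.25), Col1a2 (-0.06), Dcn (-0.21) and Lum (-0.15), among others. With the sections numbered 1 alone it turned for Col4a1 (-0.03), among others that include Vcan, Col8a1 and Thbs2. With those numbered 2 alone it turned for Col1a1 (-0.43), Lum (-0.40) and Dcn (-0.20), among others that include Col15a1 and Vtn. The causes were not tested. Of the other values by cell group, 1173 kept their direction and side of the threshold and 13 gained a call, while the rest lost one. Sections could not be paired across the embryos because their section numbers do not overlap, and replicate numbers were given in accession order only. With the numbered set as a random block, 2 members were higher over all cells and 0 lower, against 81 and 14 of all 998 genes.

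Depth limits the dim members most: 8 lie near the lowest level of the panel, and within gated groups only 10 to 34 of the 41 members passed the filter by genotype. With no filter all were fitted and 2 were called.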
